A study of Mus musculus with 30 samples.

Results

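A set of 34 endothelial and angiogenic genes was followed through 30 mouse thyroid libraries. The genes were listed by name, with earlier results of these data known, and are 34 of the 50686 genes in the count files. They hold 12 surface and core genes of endothelial cells, 2 genes of the vessel barrier, 2 endothelial selectins, 9 receptors, 5 growth factors and 4 transcription factors. All 34 passed the filter on low counts in both fits described here.

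The samples were thyroids of C57BL/6 mice, with 3 libraries in each of 10 groups and 3 mice per group per the series design. FAD4T males and WT males were compared at 2 months, as were FAD4T females and WT females, and the same 4 groups were repeated at 8 months. A further set compared WT males of 18 months with WT males of 2 months, whose libraries carry the numbers 4 to 6. The labels give no treatment, leave the name FAD4T unexplained and describe no transgene, and nothing ties a number to a litter or a day of dissection.

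Blood vessels are lined by endothelial cells, and in the thyroid a dense net of fenestrated capillaries surrounds the hormone-producing follicles. Growth factors of the VEGF family are made largely by the follicle cells and act on receptor tyrosine kinases of the endothelium, while angiopoietins act through the receptor TIE2, with TIE1 as its partner. Factors of the ETS and SOX families keep the endothelial genes on, and selectins and adhesion molecules are shown on the surface when the vessel wall is activated.

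The gene counts of a library summed to between 14083958 and 20256049. Levels are CPM, in which each count is scaled to the library total with TMM factors over all 30 libraries, or FPKM where genes of different length are set side by side. A gene is called here when its adjusted p, from edgeR's quasi-likelihood test with Benjamini-Hochberg adjustment over all genes tested, was under 0.05. The libraries differed in neighbouring tissue: the summed level of 9 thymocyte markers was above 75 CPM in 5 FAD4T libraries and lower in every other library, the summed level of 10 skeletal muscle markers differed widely between mice of the same group, and that of 8 liver markers was 176 to 578 CPM in every library of 8 months and 1.32 to 5.48 CPM in the males of 2 months of the FAD4T set. These are bulk samples, so fewer endothelial cells and less RNA per endothelial cell cannot be told apart in any result that follows.

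The genes spanned a wide range of levels. Vegfa, the gene of the main vascular growth factor, averaged 302 ± 61.0 FPKM (SD, n = 30 libraries), and Plvap, which encodes the diaphragm protein of fenestrae, averaged 83.9 ± 22.4 FPKM. Next came Vegfb at 34.9 ± 11.8, Eng at 23.5 ± 3.66 and Egfl7 at 22.5 ± 9.96 FPKM, whose ranges over the libraries overlapped. Pecam1, the pan-endothelial adhesion gene CD31, averaged 17.7 ± 3.96 FPKM and Cdh5, which encodes VE-cadherin, 10.01 ± 2.31 FPKM. The defining endothelial markers were thus present in every library. At the low end stood Angpt2 at 1.29 ± 0.448, Angpt1 at 0.707 ± 0.221, Selp at 0.569 ± 0.605 and Sele at 0.289 ± 0.242 FPKM. Sele had 0 counts in 1 library, the 2-month WT male numbered 5.

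**Figure D1:**
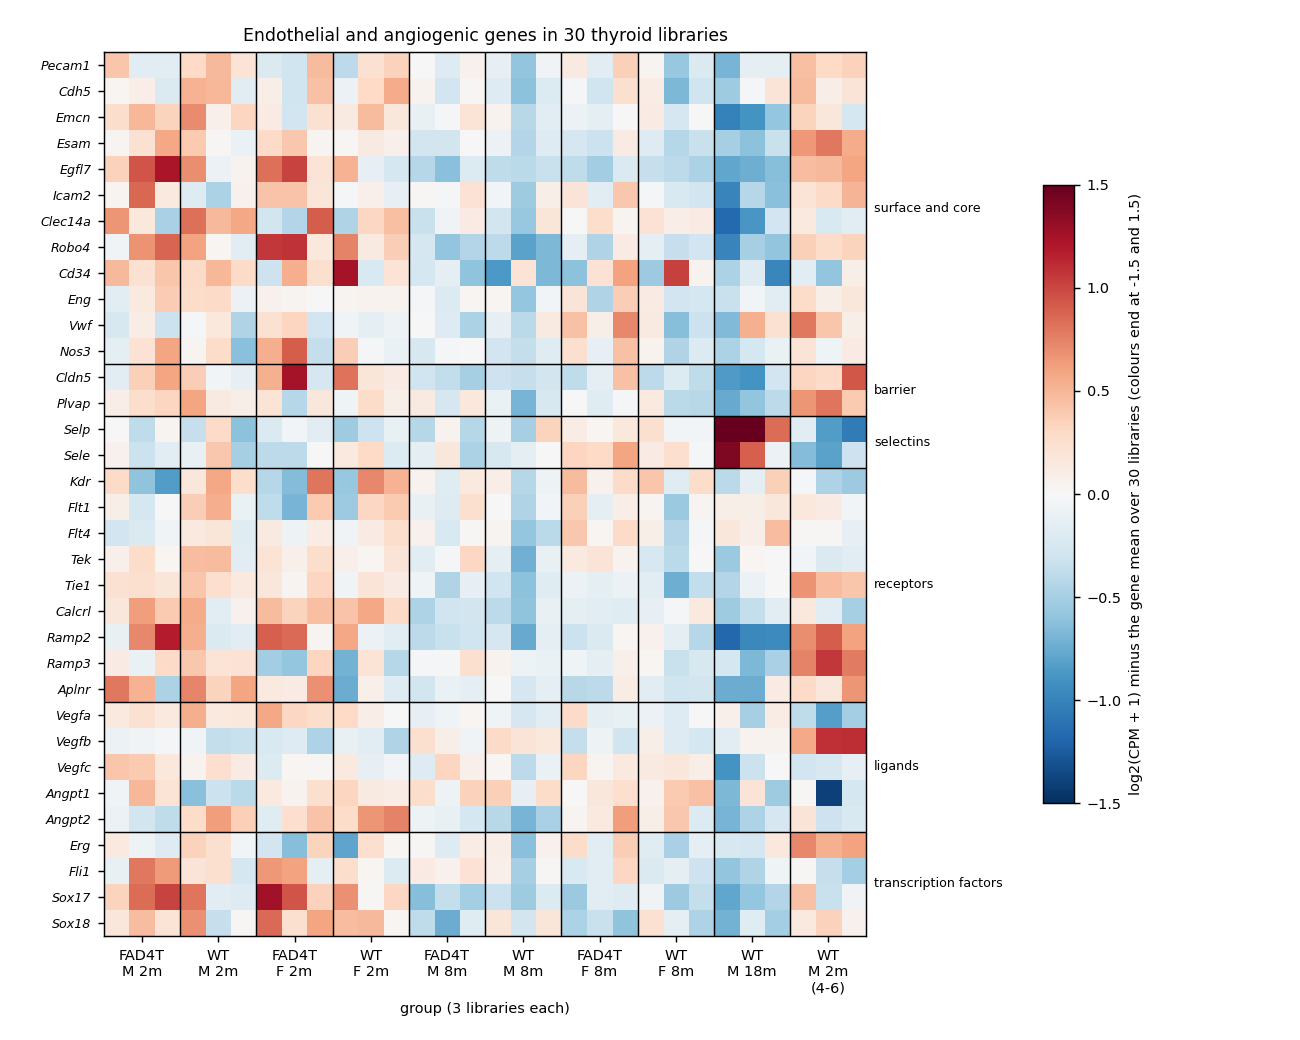
Level of each of the 34 genes (down the page, by role) in each of the 30 libraries (across, 3 per group; M male, F female, m months), as log2(CPM + 1) minus the gene's mean over all libraries, with colours ending at -1.5 and 1.5. Egfl7, Emcn, Plvap and Ramp2 are blue in all 3 libraries of 18 months, where Selp is red.

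The old gland was examined first, in WT males of 18 months against WT males of 2 months. Of the 12 surface and core genes 8 fell, as did both barrier genes and the receptor partners Ramp2 and Ramp3, while the selectins Selp and Sele rose. The VEGF receptors and 4 of the 5 growth factors did not pass the test. Of the 34 genes, 18 were called lower and 2 higher at 18 months. Over all 16283 genes tested in this comparison, 18.8% were called lower and 17.1% higher, 35.9% in all. At an unadjusted p under 0.05 there were 21 of the 34, against 46.4% of all genes. The median log2 fold change was -0.60 over the 34 genes, with 6 positive and 28 negative, and -0.01 over all genes tested, of which 49.3% were positive. The libraries did not overlap for 19 genes that were lower and 3 that were higher, against 24.8% and 26.3% of all genes.

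Of the 12 surface and core genes, 8 fell. Egfl7, which encodes a matrix protein secreted by endothelial cells, had 42.8, 44.3 and 47.3 CPM in the 18-month libraries, against 103, 104 and 113 CPM in the 2-month libraries. The groups were far apart, with a log2 fold change of -1.29 ± 0.107 (SE, adjusted p = 0.000706). Esam, a junction adhesion gene, had 30.3, 27.8 and 34.1 CPM at 18 months, against 68.1, 75.5 and 64.0 CPM at 2 months (log2 fold change -1.21 ± 0.125, adjusted p = 0.000969). Emcn, which encodes the sialomucin endomucin of capillaries and veins, had 41.3, 44.8 and 55.8 CPM at 18 months, against 106, 94.8 and 69.7 CPM at 2 months. Every old library lay below every young one for both genes, and the log2 fold change of Emcn was -0.97 ± 0.176 (adjusted p = 0.00409). Robo4, an endothelial guidance receptor that steadies the vessel wall, had 15.0, 21.5 and 19.9 CPM at 18 months, against 39.4, 37.3 and 38.94 CPM at 2 months (log2 fold change -1.07 ± 0.159, adjusted p = 0.00196).

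The other 4 core genes that fell did so by less or from lower levels. Icam2, a constitutive ligand for leukocyte integrins, averaged 4.79 ± 1.12 CPM at 18 months and 10.6 ± 1.29 CPM at 2 months (SD, n = 3 each; log2 fold change -1.18, adjusted p = 0.00696). Pecam1 averaged 86.7 ± 17.9 CPM at 18 months and 139 ± 7.65 CPM at 2 months (log2 fold change -0.72, adjusted p = 0.0103). Clec14a, a C-type lectin of the endothelium, averaged 16.7 ± 5.69 and 26.8 ± 3.93 CPM at 18 and 2 months (log2 fold change -0.72, adjusted p = 0.0417). Eng, which encodes the TGF-beta co-receptor endoglin, averaged 82.9 ± 8.68 CPM at 18 months and 106 ± 7.14 CPM at 2 months (log2 fold change -0.40, adjusted p = 0.0346). Cdh5, Cd34, Vwf and Nos3, the genes of VE-cadherin, a sialomucin, von Willebrand factor and endothelial nitric oxide synthase, had log2 fold changes between -0.43 and -0.35 and were not called. The calls for Eng and Clec14a were kept under 3 and 7 of 13 other ways of processing.

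Both barrier genes fell. Plvap had 95.4, 107 and 122 CPM in the 18-month libraries, against 256, 281 and 211 CPM in the 2-month libraries, and its log2 fold change was -1.24 ± 0.155 (adjusted p = 0.00131). Cldn5, the tight junction claudin of endothelium, had 3.28, 3.15 and 5.32 CPM at 18 months, against 8.63, 8.39 and 13.6 CPM at 2 months (log2 fold change -1.42 ± 0.302, adjusted p = 0.00762). Neither gene overlapped between the ages.

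The selectins, which slow leukocytes on the vessel wall, moved the other way. Selp, the gene of P-selectin, had 12.6, 11.2 and 4.45 CPM in the 18-month libraries, against 1.74, 0.706 and 0.475 CPM in the 2-month libraries (log2 fold change 3.20 ± 0.573, adjusted p = 0.00483). Every old library exceeded every young one, and also every other library of the series, where Selp reached at most 2.83 CPM. Sele, the gene of E-selectin, had 3.61, 2.26 and 0.636 CPM at 18 months, against 0.112, 0 and 0.407 CPM at 2 months (log2 fold change 3.54 ± 0.934, adjusted p = 0.0199). It is a gene of few counts, and the call was lost without 18-month library 1 (adjusted p = 0.0575), 2-month library 4 (0.0821) or 2-month library 5 (0.0558). It was also lost with all 6 WT males of 2 months as the young group (2.25, adjusted p = 0.0882) and with numbers 1 to 3 alone (1.59, adjusted p = 0.118). P-selectin is also carried by platelets, and the summed level of 6 platelet markers was 18.7 to 25.3 CPM at 18 months and 33.0 to 40.4 CPM at 2 months, with 0 or 1 marker at 0 counts in each library. Its part in the result was not tested. Selp shares 9.9% of its exonic bases with a gene model on the other strand, and the counts ignore strand.

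**Figure D2:**
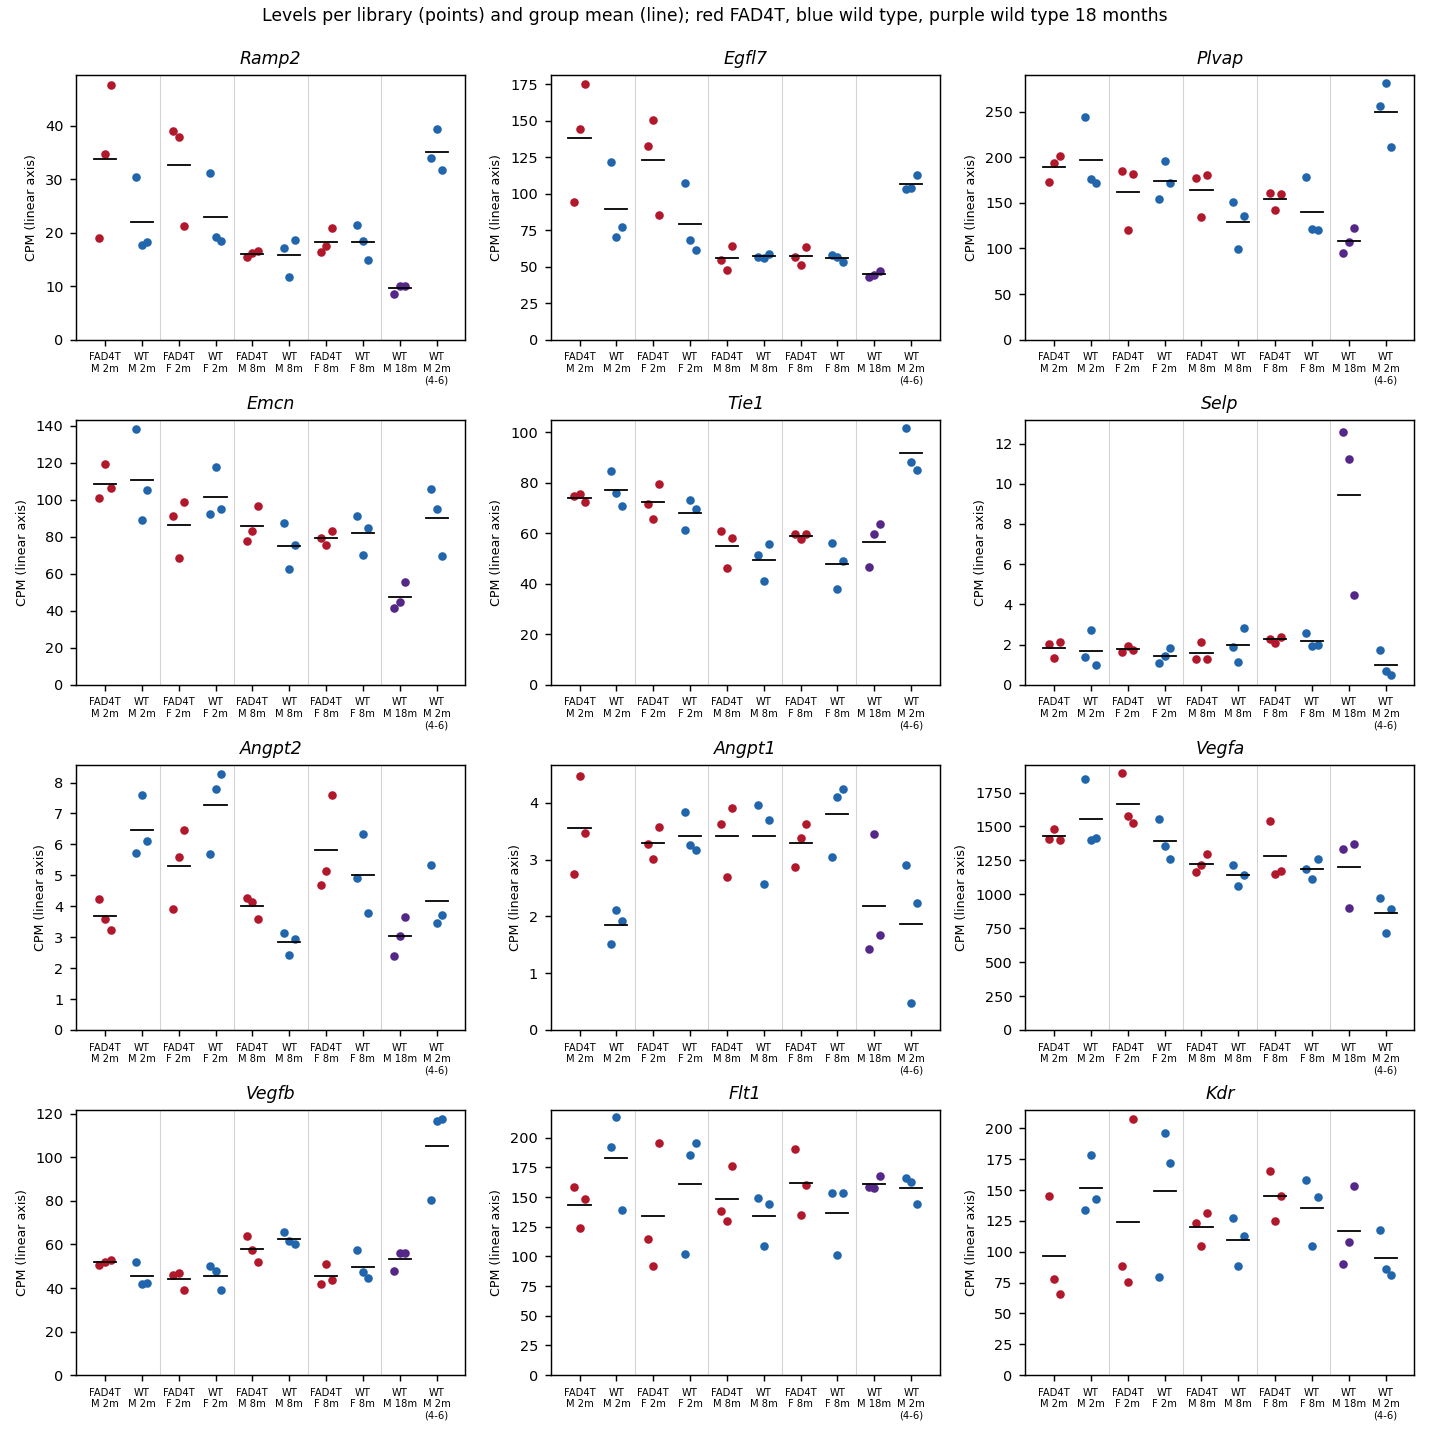
Level of 12 of the genes in CPM (linear axis from 0) in each library, as points, with the group mean as a line; FAD4T groups are left of their WT group and the 18-month group is left of the 2-month WT males numbered 4 to 6. Ramp2 averages 9.57 CPM at 18 months and 35.0 CPM at 2 months, and Selp is above 4 CPM in the 18-month libraries alone.

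Among the 9 receptors, 4 fell and the VEGF receptors were not called. Ramp2, which turns the receptor CALCRL into an adrenomedullin receptor needed for vessel integrity, had 8.53, 10.1 and 10.1 CPM at 18 months, against 34.01, 39.3 and 31.7 CPM at 2 months. This was the lowest fold change of the 34 genes, at -1.91 ± 0.154 (log2, adjusted p = 0.000706). Its partner gene Ramp3 had 9.29, 6.78 and 7.87 CPM at 18 months, against 19.7, 24.8 and 20.3 CPM at 2 months (log2 fold change -1.47 ± 0.183, adjusted p = 0.00131). Calcrl itself averaged 18.5 ± 2.41 CPM at 18 months and 21.5 ± 5.12 CPM at 2 months, with overlapping libraries (log2 fold change -0.25, adjusted p = 0.344). Ramp2 shares 33.4% of its exonic bases with Vps25 on the same strand, so its counts cannot be given to 1 gene with certainty.

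Tie1, the partner of the angiopoietin receptor, had 46.5, 59.7 and 63.6 CPM at 18 months, against 102, 88.2 and 85.0 CPM at 2 months (log2 fold change -0.73 ± 0.144, adjusted p = 0.00557). Aplnr, the apelin receptor gene, averaged 7.86 ± 3.31 CPM at 18 months and 14.3 ± 2.78 CPM at 2 months (log2 fold change -0.90, adjusted p = 0.0398), a call kept under 7 of 13 other ways of processing. The VEGF receptor gene Flt1 had 159, 158 and 168 CPM at 18 months, against 166, 162 and 144 CPM at 2 months, with a log2 fold change of 0.00 ± 0.116 (adjusted p = 0.985). Kdr, the main signalling receptor of VEGF, averaged 117 ± 32.6 CPM at 18 months and 95.1 ± 19.8 CPM at 2 months (log2 fold change 0.26, adjusted p = 0.384). The lymphatic VEGF receptor gene Flt4 (0.26) and Tek, which encodes TIE2 (-0.05), were not called either.

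Of the 5 growth factors, Vegfb alone was called. Vegfb, a ligand of FLT1, had 48.0, 56.0 and 56.0 CPM at 18 months, against 80.6, 117 and 118 CPM at 2 months (log2 fold change -1.01 ± 0.167, adjusted p = 0.00283). The young libraries of this set stood apart from all others for Vegfb: the 24 libraries of the FAD4T set ranged from 38.94 to 65.9 CPM, and against the WT males of 2 months numbered 1 to 3 the log2 fold change was 0.23 ± 0.142 (adjusted p = 0.318). Vegfa had 1332, 896 and 1369 CPM at 18 months, against 973, 714 and 889 CPM at 2 months, and was not called (log2 fold change 0.44 ± 0.205, adjusted p = 0.123). Vegfc, the lymphatic growth factor (-0.20), Angpt1, the TIE2 agonist (0.17), and Angpt2, its context-dependent antagonist (-0.50), had log2 fold changes that did not pass the test.

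Of the 4 transcription factors, 3 fell. Erg, an ETS factor of resting endothelium, had 9.68, 9.64 and 13.1 CPM at 18 months, against 19.7, 17.3 and 18.2 CPM at 2 months (log2 fold change -0.80 ± 0.175, adjusted p = 0.00844). The call for Erg was lost with all 6 WT males of 2 months as the young group (-0.56, adjusted p = 0.111) and with numbers 1 to 3 alone (-0.31, adjusted p = 0.517). Sox18, a factor of vessel and lymphatic development, averaged 18.9 ± 3.79 CPM at 18 months and 30.1 ± 3.21 CPM at 2 months (log2 fold change -0.70, adjusted p = 0.0158). Its call was lost without 2-month library 5 (log2 fold change -0.58, adjusted p = 0.0771). Sox17, a factor of arterial endothelium, averaged 6.41 ± 0.856 CPM at 18 months and 10.6 ± 3.21 CPM at 2 months (log2 fold change -0.76, adjusted p = 0.0454), a call kept under 5 of 13 other ways of processing. It shares 16.8% of its exonic bases with a gene model on the other strand, and the counts ignore strand. Fli1, another ETS factor, was not called (log2 fold change -0.14, adjusted p = 0.69).

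Promoter sequences are shown for 4 genes that fell at 18 months and for Selp, since ETS factors such as ERG and FLI1 are known to act at endothelial promoters. They are from RefSeq on GRCm38.p6 and run from 250 bases before to 50 bases after the annotated start, on the strand of the gene. Capitals mark AGGAAG or its reverse complement CTTCCT, a core of many ETS sites.
Egfl7 (chr2:26580833-26581132, + strand): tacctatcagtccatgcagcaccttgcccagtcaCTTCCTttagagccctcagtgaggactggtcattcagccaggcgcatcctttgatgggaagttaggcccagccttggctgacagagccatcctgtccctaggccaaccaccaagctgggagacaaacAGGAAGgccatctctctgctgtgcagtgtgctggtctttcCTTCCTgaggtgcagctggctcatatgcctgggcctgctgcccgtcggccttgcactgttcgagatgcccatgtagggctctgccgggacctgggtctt
Emcn (chr3:137340828-137341127, + strand): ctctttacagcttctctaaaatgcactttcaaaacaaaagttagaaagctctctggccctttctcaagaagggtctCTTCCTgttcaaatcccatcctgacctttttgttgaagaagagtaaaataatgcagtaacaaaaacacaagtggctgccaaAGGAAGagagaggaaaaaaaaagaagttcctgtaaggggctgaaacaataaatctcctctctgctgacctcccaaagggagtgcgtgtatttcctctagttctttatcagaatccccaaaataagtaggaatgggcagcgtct
Robo4 (chr9:37401722-37402021, + strand): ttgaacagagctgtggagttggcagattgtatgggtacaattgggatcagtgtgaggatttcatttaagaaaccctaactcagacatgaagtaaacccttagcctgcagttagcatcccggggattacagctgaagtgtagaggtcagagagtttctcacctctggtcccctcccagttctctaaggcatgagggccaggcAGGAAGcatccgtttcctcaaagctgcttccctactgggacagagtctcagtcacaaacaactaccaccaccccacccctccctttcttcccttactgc
Ramp3 (chr11:6658283-6658582, + strand): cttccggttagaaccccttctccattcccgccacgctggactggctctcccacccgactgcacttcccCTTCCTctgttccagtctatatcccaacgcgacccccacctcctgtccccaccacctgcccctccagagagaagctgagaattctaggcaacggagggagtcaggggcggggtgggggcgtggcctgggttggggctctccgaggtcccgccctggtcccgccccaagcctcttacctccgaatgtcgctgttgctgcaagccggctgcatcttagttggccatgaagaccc
Selp (chr1:164115014-164115313, + strand): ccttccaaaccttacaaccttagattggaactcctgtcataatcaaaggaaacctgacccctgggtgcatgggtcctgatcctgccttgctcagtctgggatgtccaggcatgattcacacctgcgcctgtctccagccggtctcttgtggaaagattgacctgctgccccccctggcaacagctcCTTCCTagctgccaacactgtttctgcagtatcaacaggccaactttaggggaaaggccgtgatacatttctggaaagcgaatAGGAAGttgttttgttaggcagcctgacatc

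These letters were found in the promoters of 11 of the 20 genes that matched the table (55.0%), against 35.4% of all 32817 promoters in it. They were in 6 of the 10 genes that fell at 18 months and had an entry, and in 3 of the 8 that were not called. Each promoter shown holds them, while those of Clec14a, Cldn5, Vegfb and Erg, which also fell, do not. The letters CCATTGT, a core bound by SOX factors, on either strand, were in 0 of the 20 and in 3.67% of all promoters. A match of letters is a description and not evidence of a bound site. The annotated start in the Egfl7 promoter shown lies 1069 bases from the gene start in the count files, and 3 starts are listed for the gene. Egfl7 is also the host of an endothelial microRNA, miR-126a, which restrains inhibitors of VEGF signalling and whose level these poly(A) libraries do not measure. Its main mature strand lies at chr2:26591402-26591423 (+ strand) inside the gene, and capitals mark the seed, bases 2 to 8.
miR-126a-3p: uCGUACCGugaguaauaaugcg

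Of 16 further endothelial genes, kept on a list apart from the 34, 5 fell and 0 rose at 18 months. Over all genes tested, 18.8% were called lower and 17.1% higher. Gpihbp1, which carries lipoprotein lipase to the capillary surface, averaged 12.2 ± 0.590 CPM at 18 months and 36.2 ± 7.22 CPM at 2 months (log2 fold change -1.60, adjusted p = 0.000969). Car4, a carbonic anhydrase of capillary endothelium, had a log2 fold change of -0.81 (adjusted p = 0.00477), Rasip1, a junction regulator, -0.68 (0.0239), and S1pr1, the sphingosine 1-phosphate receptor that keeps vessels tight, -0.41 (0.0265). The last of them was Myct1 (log2 fold change -0.73, adjusted p = 0.0499). The median log2 fold change of the 16 was -0.16.

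Of 18 tested genes of angiogenic signalling, 2 fell and 2 rose, in a comparison where 18.8% of all genes were called lower and 17.1% higher. Angptl4, a lipase inhibitor that also acts on vessels, averaged 3.95 ± 0.768 CPM at 18 months and 20.5 ± 7.35 CPM at 2 months (log2 fold change -2.41, adjusted p = 0.00141). Calca, the thyroid C-cell gene of calcitonin and of a peptide that acts on CALCRL, averaged 3040 ± 850 CPM at 18 months and 5154 ± 1347 CPM at 2 months (log2 fold change -0.80, adjusted p = 0.0485). Thbs1, an inhibitor of angiogenesis (0.68, adjusted p = 0.021), and Efnb2, an arterial ephrin (0.49, adjusted p = 0.0436), rose. Against the WT males of 2 months numbered 1 to 3, both had the opposite sign, at -0.07 and -0.24. Of 12 hypoxia-induced genes, P4ha1, a collagen hydroxylase, rose (log2 fold change 0.90, adjusted p = 0.0177), while Bnip3, a mitophagy receptor (-0.78, 0.00427), and Mxi1, a MYC antagonist (-0.69, 0.0109), fell.

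Markers of neighbouring cells moved with these genes, in a comparison where 18.8% of all genes were called lower. Of 10 tested mural markers, from pericytes and smooth muscle around the vessels, 4 fell, and their summed level over 11 genes was 238 to 464 CPM at 18 months and 446 to 593 CPM at 2 months, with none at 0. Of 10 adipocyte markers 7 fell and none were at 0, and their summed level was 259 to 655 CPM at 18 months and 2028 to 2643 CPM at 2 months. Thyrocyte markers, by their mean log2(CPM + 1) over 10 genes, were at 8.50 ± 0.17 at 18 months and 8.11 ± 0.24 at 2 months. Liver markers summed to 1.27 to 2.62 CPM at 18 months and 10.5 to 19.2 CPM at 2 months, with 4 to 6 of the 8 at 0 in the 18-month libraries and 0 to 2 in the 2-month libraries. The part of these tissues in the result was not tested.

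At 18 months the log2 fold change went with transcript length and base composition too. Over all genes tested, the median log2 fold change was -0.59 in the shortest of 5 equal bins by length (up to 1971 bases of exon) and 0.34 in the longest (from 6783 bases). Of the 17 shorter endothelial genes, 12 fell, with a median log2 fold change of -0.90, and of the 17 longer ones 6 fell, with a median of -0.35. When smooth trends on length and GC content were removed from each library, 13 of the 34 genes were called lower and 2 higher, and their median was -0.63. Of all 16181 genes, 11.8% were called lower and 3944 were called in either direction. Ramp2 then stood at -1.68 and Egfl7 at -1.08, both with an adjusted p of 0.00125. Cldn5 (adjusted p = 0.12), Icam2 (0.0612) and Vegfb (0.121) were no longer called, nor were Sox18, at -0.04, Sox17, Aplnr and Eng, while Flt1 (-0.41, adjusted p = 0.025) and Calcrl (-0.59, adjusted p = 0.0478) were. Over all genes, the log2 fold change at 18 months correlated with length at 0.39 (Spearman). At 8 against 2 months the correlation was -0.16 in WT males and -0.03 in WT females. For FAD4T against WT mice it was -0.17 in males and 0.02 in females of 2 months, and 0.1 and 0.31 at 8 months.

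**Figure D3:**
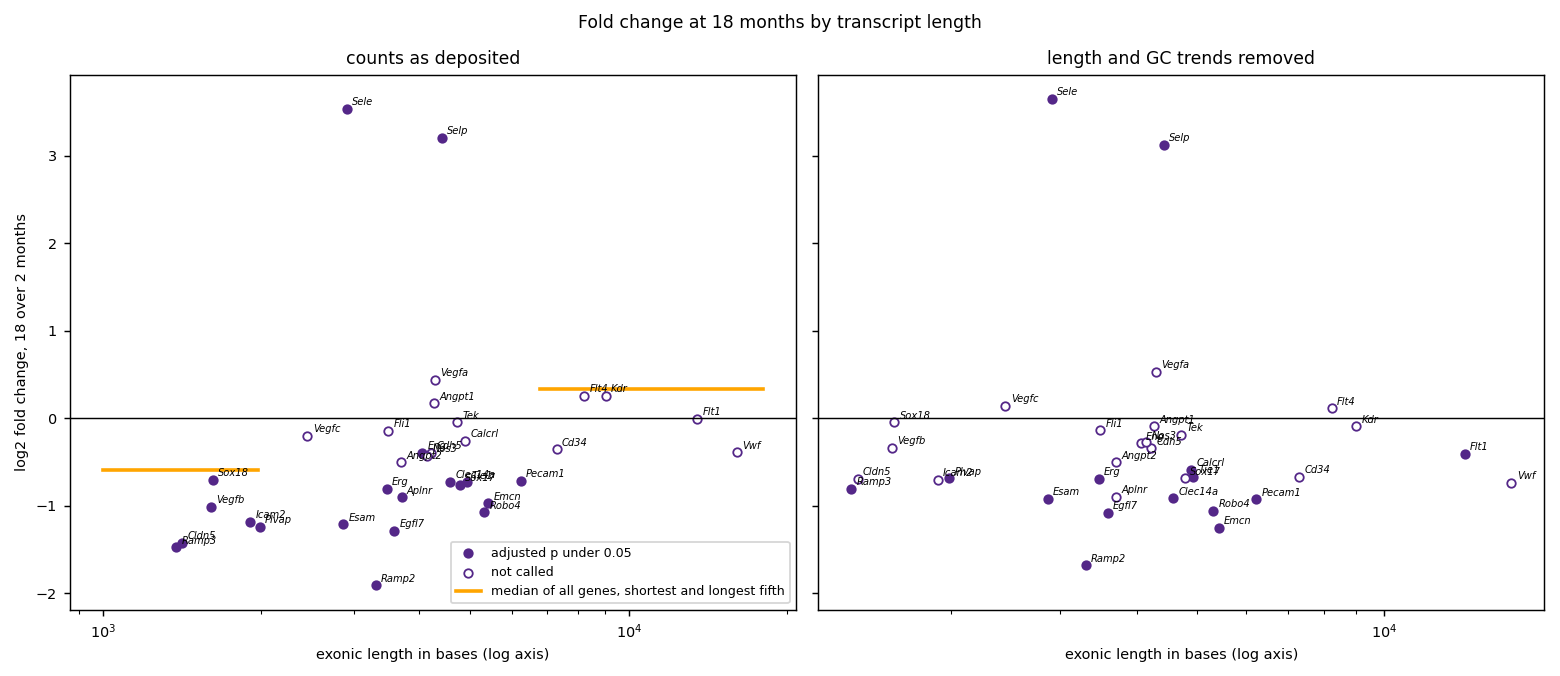
Log2 fold change of the 34 genes at 18 months over 2 months against exonic length in bases (log axis), from the counts as deposited (left) and after trends on length and GC content were removed (right); filled points were called, and orange lines give the median of all genes in the shortest and the longest of 5 equal bins. In the left panel 12 of the 17 shorter genes and 6 of the 17 longer genes are called lower, and in the right panel Ramp2, Egfl7, Emcn and Robo4 lie below -1.

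The choice of young mice mattered for single genes. Between the 2 sets of WT males of 2 months, numbers 4 to 6 against 1 to 3, 4063 of 18799 genes (21.6%) were called, among them 3 of the 34: Vegfb at 1.21, Esam at 0.56 and Vegfa at -0.86 (log2). With numbers 1 to 3 as the young group, 11 of the 34 genes were called lower and 1 higher at 18 months. Of all genes, 4.97% were called lower and 9.45% in either direction. Emcn was then at -1.23 (adjusted p = 0.000284), Egfl7 at -0.998 (0.00699), Plvap at -0.87 (0.00711), Ramp2 at -1.21 (0.00916) and Selp at 2.47 (0.00143). Of the genes called against numbers 4 to 6, Pecam1 (-0.64, adjusted p = 0.0721), Tie1 (-0.45, 0.052), Cldn5 (-0.87, 0.099), Icam2 (-0.56, 0.14), Sox18 (-0.66, 0.0742) and Eng (-0.35, 0.237) were not called against numbers 1 to 3, nor were Vegfb, Erg and Sele. Angpt2, not called against numbers 4 to 6, was at -1.09 (adjusted p = 0.00856). The values against numbers 1 to 3 come from 1 fit of all 30 libraries, and the main calls from a fit of 6 libraries. In the fit of 30 libraries with numbers 4 to 6 as the young group, Eng was not called (-0.36, adjusted p = 0.131). Clec14a (0.105) and Sox17 (0.055) were not called there either. The loss of Eng can thus not be put down to the young set. Egfl7, Emcn, Esam, Plvap, Ramp2, Ramp3, Robo4 and Selp were called under all 13 other ways of processing, length trends and both young sets included. The 2 young sets differed in neighbouring tissue. Skeletal muscle markers summed to 4711 to 35410 CPM in numbers 4 to 6, 20.95 to 3866 CPM in numbers 1 to 3 and 3894 to 27200 CPM at 18 months. Adipocyte markers summed to 2028 to 2643 CPM in numbers 4 to 6 and 724 to 1107 CPM in numbers 1 to 3. The part of these tissues in the result was not tested.

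The comparison of 8 with 2 months in WT males shares no library with that of 18 months. Angpt2 and Tie1, a ligand and a receptor of the angiopoietin system, fell. They were the 2 of the 34 genes called, both lower, against 0.27% of all 18493 genes called lower and 0.422% called higher. Angpt2 had 3.14, 2.41 and 2.95 CPM at 8 months, against 5.71, 7.59 and 6.11 CPM at 2 months (log2 fold change -1.18 ± 0.253, adjusted p = 0.0355). Tie1 had 51.5, 41.1 and 55.7 CPM at 8 months, against 84.7, 76.1 and 70.7 CPM at 2 months (log2 fold change -0.63 ± 0.146, adjusted p = 0.0482). The groups were apart for both genes, but neither was called when any 1 of the 6 libraries was left out, with adjusted p of 0.0917 to 0.155 for Angpt2 and 0.0832 to 0.228 for Tie1. Tie1 was also not called when trends on length and GC content were removed (-0.59, adjusted p = 0.0657).

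The rest of the set lay mostly on the lower side at 8 months in males without passing the test. The log2 fold change was negative for 30 of the 34 genes, with a median of -0.44 against 0.00 over all genes, and for 17 of them the unadjusted p was under 0.05, as it was for 11.7% of all genes. The libraries did not overlap for 17 genes that were lower, against 9.99% of all genes. Plvap had 151, 99.2 and 136 CPM at 8 months, against 244, 176 and 172 CPM at 2 months (log2 fold change -0.61, adjusted p = 0.185). Emcn had a log2 fold change of -0.55 (adjusted p = 0.158), Robo4 -0.82 (0.158) and Tek -0.59 (0.139). On the other side, Vegfb (0.48, adjusted p = 0.0991) and Angpt1 (0.89, adjusted p = 0.113) were higher in every 8-month library than in any 2-month library, without being called. The same held for 11.2% of all genes. With the trends on length and GC content removed, Vegfb was called higher (0.46, adjusted p = 0.0324).

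Beyond the 34 genes, Nrp1, a VEGF and semaphorin co-receptor, fell to 32.9 ± 1.26 CPM at 8 months, against 70.0 ± 13.7 CPM at 2 months in males (log2 fold change -1.08, adjusted p = 0.0423). It was the 1 gene called of 19 tested on the signalling list, and 0 of 16 further endothelial genes and 0 of 12 hypoxia genes were called, with 5 and 2 at an unadjusted p under 0.05. Of 11 mural markers 2 fell, Pdgfrb and Notch3, and all 11 had a negative log2 fold change. Their summed level was 328 to 440 CPM at 8 months and 553 to 676 CPM at 2 months, with none at 0. The summed level of adipocyte markers was 1358 to 1512 CPM at 8 months and 724 to 1107 CPM at 2 months, with none at 0. That of 8 liver markers was 232 to 479 CPM at 8 months and 1.32 to 3.38 CPM at 2 months, and all 8 were higher in every 8-month library than in any 2-month library, with a median log2 fold change of 8.51. None of the 8 were at 0 at 8 months, and 2 to 5 were at 0 at 2 months. The part of these tissues in the result was not tested.

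In WT females of 8 against 2 months, edgeR called 0 of the 34 genes, as did DESeq2, with 7 at an unadjusted p under 0.05 against 8.55% of all genes. Over all genes, 0.0487% were called lower. The log2 fold change was negative for 26 and positive for 8 of the 34, with a median of -0.25, while 49.6% of all genes were positive. The libraries were apart for 9 genes on the lower side and 1 on the higher, against 7.09% and 5.3% of all genes. The smallest p belonged to Tie1, which had 56.3, 37.9 and 48.9 CPM at 8 months, against 61.2, 72.9 and 69.4 CPM at 2 months (log2 fold change -0.49 ± 0.146, adjusted p = 0.184). Robo4, at -0.69 (adjusted p = 0.383), and Calcrl, at -0.43 (0.421), followed. For all 3 genes the 8-month libraries lay below the 2-month libraries. Angpt2 had 4.91, 6.33 and 3.79 CPM at 8 months, against 5.70, 7.80 and 8.28 CPM at 2 months, which overlapped (log2 fold change -0.52, adjusted p = 0.584). Mural markers summed to 415 to 492 CPM at 8 months and 548 to 588 CPM at 2 months. Liver markers summed to 176 to 544 CPM at 8 months and 7.37 to 3293 CPM at 2 months, highest in 2-month WT female 1. The part of these tissues in the result was not tested.

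Set side by side, the 3 age comparisons share no library. The log2 fold change was negative in both sexes at 8 months for 25 of the 34 genes (73.5%), against 31% of all genes, and in all 3 comparisons for 22 (64.7%), against 17.3% of all genes. Tie1 was at -0.63 in males and -0.49 in females at 8 months and at -0.73 at 18 months. Egfl7 was at -0.64, -0.47 and -1.29 in the same order, and Plvap at -0.61, -0.29 and -1.24. Flt1 was at -0.44, -0.22 and 0.00, and Vegfb at 0.48, 0.15 and -1.01. Selp was at 0.22, 0.59 and 3.20, and was called at 18 months alone. Whether an effect at 18 months differs from one at 8 months was not tested, since the sets were fitted apart.

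**Figure D4:**
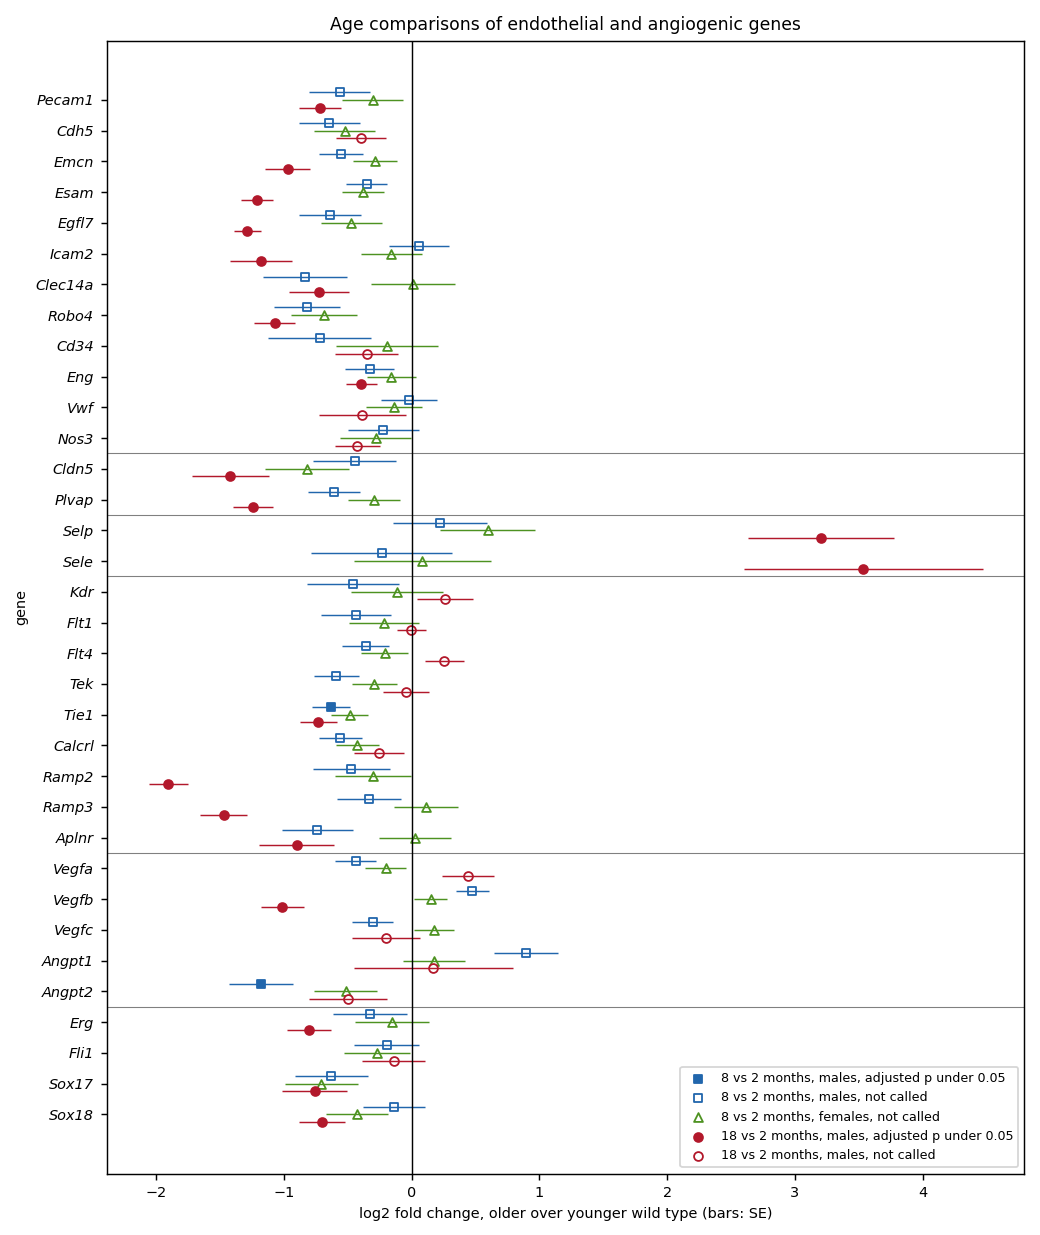
Log2 fold change (older over younger WT mice, bars SE) of the 34 genes by role, for 8 over 2 months in males (blue squares) and females (green triangles) and for 18 over 2 months in males (red circles); filled symbols were called. Most points lie left of 0 in all 3 comparisons, Angpt2 and Tie1 are filled at 8 months in males, and Selp and Sele lie right of 3 at 18 months.

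The genotype was compared within each sex and age, and edgeR called none of the 34 genes in any of the 4 comparisons, as did DESeq2. Over all genes tested, the share called was 0% in males and in females of 2 months, 0% in males of 8 months and 0.0216% in females of 8 months. At an unadjusted p under 0.05 there were 4, 2, 1 and 2 of the 34 genes in the same order, against 14.5%, 16.7%, 1.81% and 4.66% of all genes. The median log2 fold change of the 34 genes was -0.02, 0.06, 0.13 and 0.15. At 2 months it was positive for 16 of them in males and 18 in females, against 51.9% and 48.1% of all genes.

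In males of 2 months the angiopoietins had the smallest p. Angpt1 had 2.74, 4.47 and 3.47 CPM in FAD4T males, against 1.51, 2.11 and 1.92 CPM in WT males (log2 fold change 0.95 ± 0.25, adjusted p = 0.343). Angpt2 had 4.22, 3.58 and 3.24 CPM in FAD4T males, against 5.71, 7.59 and 6.11 CPM in WT males (log2 fold change -0.81 ± 0.25, adjusted p = 0.343). Both genes were apart between the genotypes, as 6.11% of all genes were on the higher and 6.07% on the lower side. The third was Icam2, at 8.39, 15.7 and 9.12 CPM in FAD4T males, against 7.00, 5.61 and 8.62 CPM in WT males, which overlapped (log2 fold change 0.64, adjusted p = 0.343).

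In females of 2 months the 3 genes with the smallest p were Egfl7, Aplnr and Sox17. Egfl7 had 132, 151 and 85.6 CPM in FAD4T females, against 107, 68.3 and 61.6 CPM in WT females (log2 fold change 0.64 ± 0.241, adjusted p = 0.221). Aplnr had 11.97, 11.7 and 17.9 CPM in FAD4T females, against 5.99, 11.3 and 9.24 CPM in WT females (log2 fold change 0.65, adjusted p = 0.265). The libraries were apart for 2 of the 34 genes on the higher side and 0 on the lower, against 5.33% and 4.46% of all genes. Sox17 had 25.8, 20.5 and 13.2 CPM in FAD4T females, against 17.0, 10.3 and 12.9 CPM in WT females (log2 fold change 0.56, adjusted p = 0.314). Without FAD4T female 3, which has the lowest Egfl7 of its group, Egfl7 was called (0.83, adjusted p = 0.0298). The FAD4T females left in that fit were both of high thymocyte level. Without WT female 1, the library of high liver level, Egfl7 was at 0.89 and was not called (adjusted p = 0.107).

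Thymocyte markers moved with several of these genes at 2 months. Their summed level over 9 genes was 4.06, 396 and 92.1 CPM in FAD4T males and 153, 246 and 2.60 CPM in FAD4T females, against 1.79 to 2.05 CPM in WT males and 1.25 to 22.6 CPM in WT females. The libraries of high thymocyte level, males 2 and 3 and females 1 and 2, had 144, 175, 132 and 151 CPM of Egfl7, and the other FAD4T libraries of that age had 94.4 and 85.6 CPM. They also had the lowest Kdr of their groups, at 78.0, 66.2, 88.1 and 75.2 CPM, against 145 and 208 CPM. Of the 9 markers, 0 to 2 were at 0 counts in the FAD4T libraries of 2 months and 0 to 4 in the WT libraries. When the 5 libraries rich in thymocyte markers were left out, so that each sex had 1 FAD4T library at 2 months, Egfl7 was at 0.15 in females and Angpt1 and Angpt2 were at 0.59 and -0.59 in males (log2). These are values of single libraries, and their spread is taken from the other groups, so they do not show the part of thymus tissue, which was not tested.

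At 8 months the genes with the smallest p were others than at 2 months, apart from Angpt2 in males. In males, Tek had 28.3, 31.3 and 39.9 CPM in FAD4T mice, against 29.0, 19.0 and 29.5 CPM in WT mice (log2 fold change 0.38 ± 0.178, adjusted p = 1). Angpt2 had 4.27, 4.14 and 3.60 CPM in FAD4T males, against 3.14, 2.41 and 2.95 CPM in WT males, which did not overlap (log2 fold change 0.52, adjusted p = 1). Sox18 was at -0.47 (adjusted p = 1). In males of 8 months the libraries were apart for 1 of the 34 genes on the higher side and 0 on the lower, against 4.35% and 6.43% of all genes. In females, Vwf had 43.3, 33.8 and 52.5 CPM in FAD4T mice, against 34.7, 19.9 and 25.1 CPM in WT mice (log2 fold change 0.71 ± 0.22, adjusted p = 1). Tie1, at 0.31, and Flt4, at 0.38, followed. In females of that age the libraries were apart for 3 genes on the higher side and 1 on the lower, against 5.61% and 7.24% of all genes. The log2 fold change was positive for 26 of the 34 genes in males and 27 in females, against 52.2% and 47.9% of all genes, and mural markers summed to 413 to 442 CPM in FAD4T males, 328 to 440 CPM in WT males, 480 to 571 CPM in FAD4T females and 415 to 492 CPM in WT females. The 10 skeletal muscle markers separated the females of 8 months: they summed to 17.4 to 43.7 CPM in FAD4T females and 534 to 5353 CPM in WT females, with none at 0, and all 10 were lower in every FAD4T library (median log2 fold change -7.31). The part of these tissues in the values of the 34 genes was not tested.

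**Figure D5:**
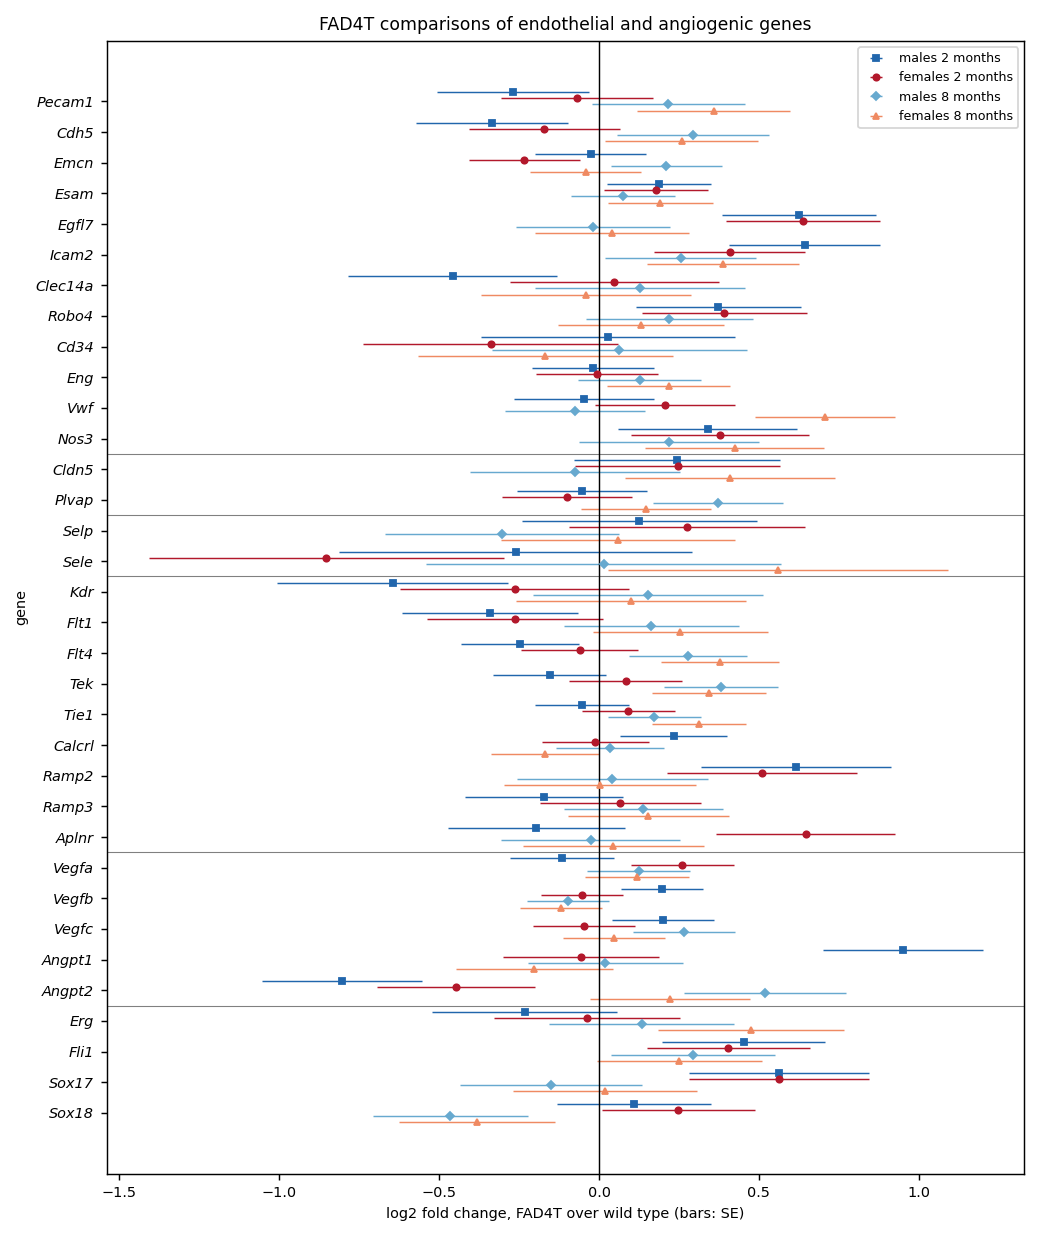
Log2 fold change (FAD4T over WT, bars SE) of the 34 genes by role, in males and females of 2 and 8 months. No gene was called; Angpt1 at 0.95 and Angpt2 at -0.81 in males of 2 months are among those farthest from 0.

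The test of whether the genotype effect differed between sexes or ages called 0 of the 34 genes by edgeR and by DESeq2 in all 4 interactions, with 2 and 1 genes at an unadjusted p under 0.05 for sex at 2 and 8 months and 3 and 0 for age in males and females. The shares of all genes at that p were 4.02%, 2%, 4.99% and 8.22%. The smallest p belonged to Angpt2 in males, for which the genotype effect at 8 months minus that at 2 months was 1.32 ± 0.355 on the log2 scale (adjusted p = 0.735). In females the same difference was 0.67 (adjusted p = 0.605), with Sox18 at -0.63 and Sele at 1.41. Angpt1 in males gave -0.93 and Tek 0.53 (adjusted p = 0.735 each). For females minus males at 2 months, Angpt1 was at -1.01, Aplnr at 0.84 and Vegfa at 0.38, and at 8 months Vwf was at 0.78, Cldn5 at 0.49 and Emcn at -0.25 (adjusted p = 1 each).

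Between male and female WT mice edgeR and DESeq2 called 0 of the 34 genes at either age, with 3 at an unadjusted p under 0.05 at each, against 6.69% of all genes at 2 months and 5.09% at 8 months. Over all genes the share called was 0.0757% at 2 months and 0.27% at 8 months. At 2 months Angpt1 had 1.51, 2.11 and 1.92 CPM in males, against 3.84, 3.26 and 3.17 CPM in females (log2 fold change -0.89 ± 0.25, adjusted p = 0.151). Aplnr had 18.4, 13.7 and 16.6 CPM in males, against 5.99, 11.3 and 9.24 CPM in females (log2 fold change 0.88, adjusted p = 0.249). Neither overlapped between the sexes, and Ramp3, at 0.58, did. Of all genes, 3.46% were apart on the higher side in males and 4.43% on the lower. At 8 months Angpt2 had 3.14, 2.41 and 2.95 CPM in males, against 4.91, 6.33 and 3.79 CPM in females (log2 fold change -0.83 ± 0.253, adjusted p = 0.375), with Vegfb at 0.32 and Calcrl at -0.39. Of the signalling genes, Thbs2, a matrix inhibitor of angiogenesis, was lower in males of 8 months, at 4.93 ± 0.726 CPM, against 27.1 ± 18.6 CPM in females (log2 fold change -2.47, adjusted p = 0.00925). The summed level of 8 fibroblast markers was 377 to 645 CPM in these males and 710 to 1051 CPM in these females. Its part in the result was not tested. No other gene of the 3 pathway lists was called between the sexes.

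Across the 10 groups the angiopoietins stayed at a few CPM. Angpt2 was lowest in WT males of 8 months, at 2.83 ± 0.379 CPM (SD, n = 3), and highest in WT females of 2 months, at 7.26 ± 1.37 CPM. Angpt1 was lowest in WT males of 2 months, at 1.85 ± 0.307 CPM in those numbered 1 to 3 and 1.87 ± 1.26 CPM in those numbered 4 to 6, and highest in WT females of 8 months, at 3.80 ± 0.656 CPM.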

How the data were processed

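Poly(A) RNA libraries made with dUTP, per the labels' protocols, were sequenced from mouse thyroids. The authors deposited 1 table per library of raw counts per gene, made with featureCounts 1.6.0 on Ensembl release 88 (GRCm38) without strand, per the file headers. The submitters' processing notes name HISAT2 2.0.4, StringTie 1.3.4d, cutadapt 1.9 and the build GRCm39, which differs from that in the headers. Depth was 14083958 to 20256049 counts per library, and rows without a gene symbol held at most 0.094% of them. Within the groups, 30 pairs of libraries were compared and 0 were identical. Nothing in the labels says how the replicates were raised, so p-values measure the spread between these samples.

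Genes were filtered with filterByExpr of edgeR 4.0.16 (minimum count 10) and scaled by TMM. The quasi-likelihood test (R 4.3.3, prior count 0.125 for fold changes) was fitted to the 8 groups of the FAD4T set (24 libraries, 18493 genes) and apart from it to the 6 ageing libraries (16283 genes), with Benjamini-Hochberg adjustment over all genes at 0.05. In all, 13 comparisons were made. The script was tested on simulated data. Alternatives were DESeq2 1.42.0, its size factors, no filter, a replicate block, other sets of libraries, leaving out each library, and offsets for length and GC content. The offsets and the use of WT males numbered 1 to 3 alone as the young group were chosen after seeing the data. The groups shared replicate numbers in the FAD4T set. Deviations of same-numbered libraries correlated at 0.42, 0.4 and 0.51 between FAD4T and WT males of 8 months, where the numbers may pair the libraries. In the other comparisons they did not correlate at over 0.1 for every number. The pairing comes from these data alone, and the values reported are from the fit without a block. The block, by replicate number over all 24 libraries, changed no call between FAD4T and WT males of 8 months. A pairing of that comparison alone was not fitted.

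The 34 genes, the pathway lists and the cell type lists were chosen with earlier results of these data known. The text names every one of the 34 genes that was called and the 3 with the smallest p in each comparison, and other genes where a value is set beside these. Promoters came from RefSeq (GRCm38.p6).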

Additional observations from a re-analysis of the deposited data

How the results depend on the processing

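At 18 against 2 months in WT males, 20 of the 34 genes were called (35.9% of all genes), and 15 to 18 when each library was left out in turn. With all 6 WT males of 2 months as the young group 13 were called, and with numbers 1 to 3 alone, in 1 fit of all 30 libraries, 12 (9.45% of all genes). The share of all genes is not given here for single libraries left out or for all 6 young males. With numbers 1 to 3, Vegfb (0.23), Thbs1 (-0.072) and Efnb2 (-0.24) took the opposite sign on the log2 scale. The cause was not tested. At 8 against 2 months in WT males, 2 genes were called (0.692% of all genes), against 5 by DESeq2, 0 without the filter on low counts, 1 without the 5 libraries of high thymocyte level, and 0 whichever of the 6 libraries was left out. With offsets for length and GC content, Angpt2 was called lower (-1.19, adjusted p = 0.0231) and Vegfb higher (0.46, 0.0324). Tie1 was not called with them (-0.59, 0.0657), and of all 18283 genes 142 were called. With the replicate block, 1 gene was called there, Tie1 (adjusted p = 0.0431), while Angpt2 was not (0.0515). These numbers share no source in the labels. The block gave 0 calls in every FAD4T, sex and interaction comparison and in females at 8 against 2 months, as did the fit without it. Between FAD4T and WT females of 2 months, 0 to 1 genes were called when each library was left out, the 1 being Egfl7 without FAD4T female 3. With 3 libraries per group and genes of a few CPM such as Sele, Selp and the angiopoietins, counting error adds to the spread between mice. The other fold changes of named genes were counted once per gene, comparison and setting. With all libraries in use or other sets of them, 441 kept their direction and side of the threshold. Another 57 kept the direction without passing it. With single libraries left out, 408 kept both, 71 kept the direction alone and 1 passed newly. The 441 and the 408 include genes that were not called and stayed so, and thus do not measure how stable the calls were.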
